A study of Danio rerio with 16 samples.

Results

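Wide unmethylated domains are stretches of the zebrafish genome in which almost every CpG is read as unmethylated over 4 kb or more. They were found in the danRer10 genome by dividing it into bins of 1 kb and keeping bins with at least 3 CpGs and at least 20 calls, a call being 1 read of the methylation state of 1 CpG, summed over all libraries of 4 and 7 hours post fertilisation (hpf). Bins with a methylation level (methylated calls as a share of all calls) below 15% at these stages were joined where adjacent, and runs of 4 or more bins were retained. Of 21253 runs of any length, 738 (3.47%) qualified, and they held 5004 bins, 14.5% of the 34487 bins below 15%. The 4 and 7 hpf values thus chose the domains and are given as a description only, while the 8 libraries at 24 and 36 hpf took no part in the choice.

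The study profiled whole-genome bisulfite methylomes of primordial germ cells (PGCs) and somatic cells (soma) at 4, 7, 24 and 36 hpf, with 2 libraries in each of the 8 groups. All 16 libraries came from 1 line of embryos with a transgene, kop-egfp-f-nanos3′UTR, that labels PGCs with green fluorescence (the methods of the study add cry:dsred, a red marker, to its name), and both cell types were separated by fluorescence-activated cell sorting, so the soma is the mixture of all other sorted cells of the embryo. The methods of the study describe the 4 hpf replicates as technical and those of 7, 24 and 36 hpf as biological. They also state that N-phenylthiourea was used against pigmentation in embryos past 24 hpf, and that eggs were raised at several temperatures. Any part of that treatment in differences between 36 and 24 hpf cannot be told apart from stage. The labels do not say what same-numbered libraries share, so that p-values measure only the spread between these libraries. The files hold no expression values, and the labelled cell types were not checked against marker genes.

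DNA methylation in vertebrates is placed on CpG dinucleotides and covers most of the genome, with CpG-dense unmethylated islands at many promoters as the main exception. Wide unmethylated regions, also called methylation valleys or canyons, are known from several vertebrates to lie over genes of developmental regulators, homeobox gene clusters among them, and often to carry Polycomb marks. Gene annotation of danRer10 was not used here, so the domains are named by position and the genes at them are not given.

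The domains had a median width of 5 kb, with 406 domains of 4 to 5 kb, 206 of 6 to 9 kb, 113 of 10 to 19 kb and 13 of 20 to 70 kb. They contained 111113 of the 10260021 CpGs measured in both replicate tables (1.08%), and the median domain held 126.5 CpGs. Measured CpGs were dense in them, at a mean of 22.2 per kb, against 21.1 in runs of 2 to 3 kb, 19.6 in single unmethylated bins and 10.4 in the remaining bins. Domains of 4 to 5 kb ranged from 7.50 to 64.5 CpGs per kb, whereas the 13 domains of 20 kb or more all lay between 17.4 and 24.0. Narrow domains thus included both few and many measured CpGs per kb. The widest domains are fewer and each averages over more bins, and the part of this in their narrower range was not tested. These densities count only CpGs with calls in both tables, not all CpGs of the sequence. Calls per CpG were higher in the domains than in the remaining bins in every library (5.64 against 3.23 in PGC 4 hpf replicate 1). The part of depth in the densities was not tested.

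**Figure D1:**
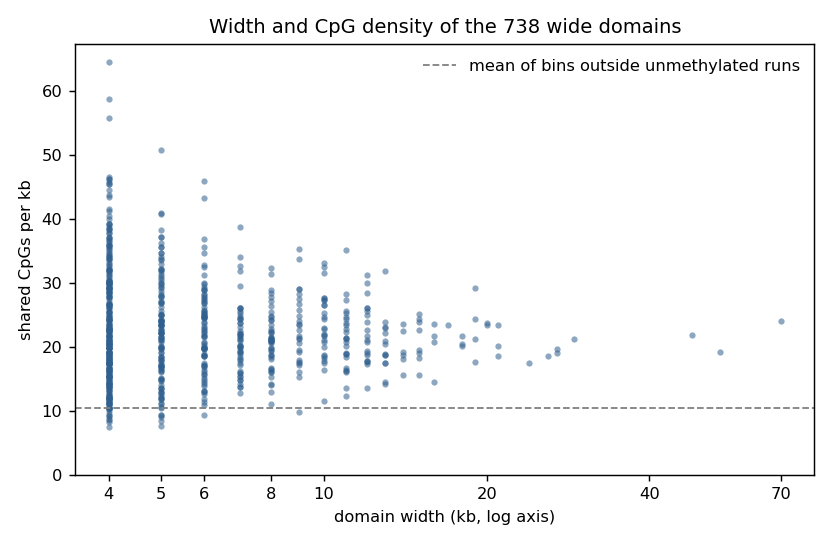
Width of each of the 738 domains (x axis, kb, log scale) against its number of shared CpGs per kb (y axis); each point is 1 domain and the dashed line is the mean of bins outside unmethylated runs, 10.4 per kb. The range is 7.50 to 64.5 CpGs per kb in the 406 domains of 4 to 5 kb and 17.4 to 24.0 in the 13 of 20 kb and over. The latter are fewer and each averages over more bins.

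Domains were found on all 25 chromosomes. Chromosome 18 held the fewest (14, or 0.274 per Mb up to its last measured CpG) and chromosome 7 the most (65, 0.877 per Mb), whereas chromosome 14 had the highest density (50 domains, 0.963 per Mb, against 0.551 over all chromosomes). On chromosome 14 the domains took up 24.97% of all unmethylated bins, against 8.40% on chromosome 18. Some domains had close neighbours: of 713 neighbouring pairs on the same chromosome, 157 were within 100 kb and 36 were separated by a gap of a single kb, although the median gap was 887 kb.

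The widest domain, chr3:23545001-23615000, spanned 70 kb and contained 1682 CpGs. Its level in the PGC libraries of 24 and 36 hpf (replicate 1, replicate 2) was 0.95% and 1.05%, then 1.03% and 1.0%, and in soma 0.81% and 1.12%, then 1.27% and 1.16%. The libraries overlapped between cell types and between stages, with at least 19125 calls in each. Within 100 kb on either side of it, 31.5% of bins were unmethylated, against 3.73% of all bins in the genome, and 6 further wide domains lay there.

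The second widest, chr23:35971001-36025000 (54 kb, 1040 CpGs), averaged 1.04% at 24 hpf and 0.97% at 36 hpf, and the third, chr19:20170001-20218000 (48 kb, 1048 CpGs), 0.94% and 0.92%. Both were again set among other unmethylated sequence, with 29.8% and 15.3% of bins within 100 kb below 15% at the early stages. The next, chr24:4936001-4965000 (29 kb, 617 CpGs), stood alone: 2.89% of the surrounding bins were unmethylated, below the genome-wide 3.73%, and no other wide domain lay within 100 kb. It averaged 0.90% over the early libraries, 1.46% at 24 hpf and 1.51% at 36 hpf, its 8 late libraries ranging from 1.29% to 1.62%. Next came chr9:1960001-1987000 (27 kb, 532 CpGs), which averaged 0.85% at 24 hpf and 0.95% at 36 hpf, with 27.9% of surrounding bins unmethylated. None of the 5 widest domains passed the test for PGC against soma or for 36 against 24 hpf described below (lowest adjusted p = 0.725, edgeR quasi-likelihood test).

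Pooled over all CpGs of the 738 domains, the methylation level was between 0.94% and 1.62% in every library. At 4 hpf the PGC libraries were at 0.94% and 1.15% and the soma libraries at 1.06% and 1.09%. At 7 hpf the PGC libraries were at 1.25% and 1.13% and the soma libraries at 1.17% and 1.14%. These early levels, between 0.94% and 1.25%, follow from the rule that chose the domains and carry no test. They were measured on 444638 to 2726393 calls per library inside the domains.

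At 24 hpf the pooled level reached 1.51% and 1.27% in the PGC libraries and 1.56% and 1.39% in those of soma. At 36 hpf the PGC libraries were at 1.61% and 1.57% and the soma libraries at 1.62% and 1.57%. All 4 libraries of 36 hpf lay above all 4 of 24 hpf, and the cell types overlapped at both stages. In the unmethylated lambda DNA added before conversion, which reads as the background of incomplete conversion, the level was 0.37% at 24 hpf and 0.29% at 36 hpf in PGC replicate 1, and 0.31% and 0.23% in soma replicate 1, lower at the later stage. The part of incomplete conversion in the levels was not tested further. In replicate 2 the lambda DNA had between 50 and 221 calls per library, too few for such a comparison.

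**Figure D2:**
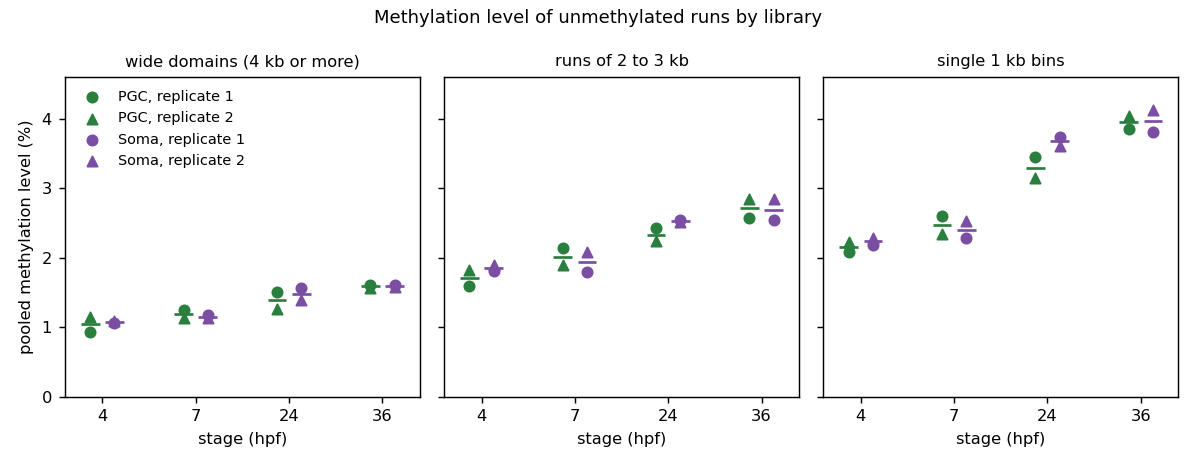
Pooled methylation level in percent (y axis) of each of the 16 libraries by stage in hpf (x axis), in the wide domains, in runs of 2 to 3 kb and in single unmethylated bins; green is PGC, purple is soma, circles are replicate 1, triangles replicate 2, and short lines are group means. The wide domains stay between 0.94% and 1.62%, the lowest of the 3 classes at every stage.

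The 36 hpf libraries averaged 1.59% and the 24 hpf libraries 1.43% in the domains, a difference of 0.162 percentage points (0.203 in PGCs and 0.122 in soma). The p of this difference was 0.0556 in an exact two-sided permutation test of 36 relabellings of stages within cell types, which is the smallest p that this design can give and does not reach 0.05. Without PGC 24 hpf replicate 2 the difference was 0.102 points, and as a mean of per-CpG fractions it was 0.107 points (p = 0.444, exact permutation). The relative size was similar in all unmethylated sequence: the ratio of 36 to 24 hpf levels was 1.11 in the wide domains (1.43% to 1.59%), 1.11 in runs of 2 to 3 kb (2.43% to 2.70%) and 1.13 in single bins (3.49% to 3.96%). In points, the change in the wide domains minus that of runs of 2 to 3 kb was -0.109 (exact p = 0.444), and minus that of single bins -0.308 (exact p = 0.111), in a test that cannot give a p under 0.0556. On leaving out single libraries the first difference lay between -0.0211 (without soma 36 hpf replicate 2) and -0.198 points (without soma 36 hpf replicate 1), and the second between -0.22 and -0.396. The remaining bins had the opposite sign, with 91.6% ± 0.031 (SD, n = 2) at 24 hpf and 89.6% ± 0.159 at 36 hpf in PGCs, and 90.9% ± 0.037 and 89.6% ± 0.483 in soma.

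No difference between PGCs and soma passed the test in the pooled level. Over the 4 libraries of each cell type at 24 and 36 hpf, the PGC level of the domains averaged 1.49% and the soma level 1.53%, a difference of -0.0446 points (p = 0.444, exact two-sided permutation within stages). Between same-numbered libraries the PGC minus soma difference was negative in all 4 pairs, at -0.0512 and -0.12 points at 24 hpf (replicates 1 and 2) and -0.000991 and -0.00673 at 36 hpf, with an exact sign-flip p of 0.125, the smallest that 4 pairs allow. Without PGC replicate 2 of 24 hpf the difference of the means was 0.0156 points. At 24 hpf the mean of PGCs was 1.39% ± 0.17 (SD, n = 2) and that of soma 1.47% ± 0.12, and at 36 hpf these means were 1.59% ± 0.033 and 1.60% ± 0.029.

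CpGs listed in a single table were not counted in the choice, and their level inside the domains was also low. The replicate 2 table lists 25807 CpGs inside the domains that the replicate 1 table does not, and their level was 3.83% to 4.71% in its 8 libraries, against 86.9% to 90.7% for such CpGs outside the domains. The 940 domain CpGs listed only in the replicate 1 table were at 2.51% to 4.36%. Both sets were higher than the shared CpGs of the domains, which were at 0.94% to 1.62%. Both sets lie within the chosen bins, among the CpGs that set the choice, and their ranges include the early libraries used for it. Their low level is thus not independent of the choice. In the replicate 2 table PGCs were at 4.21% at 24 hpf and 4.55% at 36 hpf, and soma at 4.27% and 4.71%.

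Levels of single domains were mostly near zero. Of the 738 domains, 642 (87.0%) were under 5% in every one of the 16 libraries and 486 (65.9%) were under 2% in all 8 libraries of 24 and 36 hpf. A total of 725 (98.2%) remained under 15% in all 8 late libraries, so the threshold that was set on the early stages held for nearly all of them later. The median domain was at 0.96% at 24 hpf and 0.97% at 36 hpf, and the range ran from 0.30% to 43.0% at 24 hpf and from 0.28% to 54.3% at 36 hpf. Replicates of the same group differed by a mean of 0.571 to 0.738 points per domain, and by 0.598 to 0.738 in the groups of 24 and 36 hpf. The edgeR tests of single domains below did not use these values. They set 1 common value of the spread on 5000 features of the whole genome. The spread of each domain was then drawn towards that of all features tested, nearly all of them bins outside unmethylated runs.

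The 3 lowest late levels, among domains with at least 200 calls in each library, were all in domains of 4 kb. In chr22:3133001-3137000 (77 CpGs) the 8 late libraries lay between 0.19% and 0.51%, in chr14:503001-507000 (60 CpGs) between 0% and 0.57%, and in chr7:6219001-6223000 (98 CpGs) between 0.19% and 0.60%. These levels are within the range of the lambda background of replicate 1, 0.233% to 0.452%, or close to it.

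Single CpGs inside the domains followed the same pattern. In 24.3% of the 111113 domain CpGs no methylated call was made in any of the 16 libraries, at a median of 274 calls per CpG. Only 679 domain CpGs (0.611%) reached 50% or more over the 8 late libraries, and they were spread over 257 domains, with 23.9% of them in the 10 domains that held most. They lay mainly at the borders: 71.0% were in the first or last bin of a domain, where 25.8% of all domain CpGs lie.

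The borders of the domains were steep. Within the domains the mean level fell from 2.44% in the last bin to 1.27% in the next bin and 0.93% in the third at 24 hpf, and from 2.71% to 1.41% and 1.01% at 36 hpf. The first bin outside was at 70.3% at 24 hpf and 68.4% at 36 hpf, over 869 bins against 1476 last bins inside. The bins that follow, 2 to 5 kb outside, were lower again at 55.3% to 60.9%, and 16.2% to 20.1% of them were themselves unmethylated at the early stages, against 3.73% in the genome. The first bin outside cannot be unmethylated by construction, since it would otherwise have belonged to the domain.

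**Figure D3:**
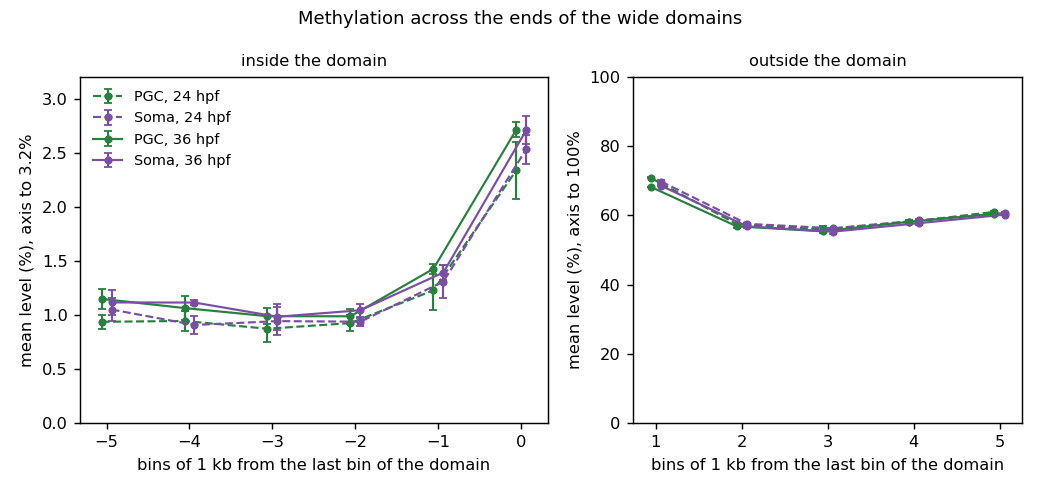
Mean level in percent (y axes, to 3.2% inside and to 100% outside) in 1 kb bins counted from the last bin of the domain (0; negative inside, positive outside), for PGC (green) and soma (purple) at 24 hpf (dashed) and 36 hpf (solid); bars are the SD of 2 libraries. The last bin is at 2.44% and 2.71% (means of 24 and 36 hpf), the third bin inside at 0.93% and 1.01%, and the first bin outside at 70.3% and 68.4%.

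The first and last bins of the domains together were at 2.44% at 24 hpf and 2.71% at 36 hpf and the interior bins at 1.10% and 1.22%, a ratio of 1.11 in both. The change at the borders exceeded that of the interior by 0.157 points (p = 0.278, exact two-sided permutation, with 0.0556 the smallest p possible), and by 0.0816 to 0.233 points on leaving out single libraries.

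The widths are lower bounds where data were missing. Of 1476 ends, 877 adjoined a bin of 15% or more, whose median early level was 92.3%, while 599 (40.6%) adjoined a bin with too few calls or CpGs or no CpG in both tables. Of the methylated bins at ends, 565 were at 80% or more and 89 at 15 to 25%. If bins without data are allowed to lie within a domain, the number of domains becomes 863, the longest reaches 85 kb (chr1:415001-500000) and 26 span 20 kb or more. The bins closest to the threshold on its outer side were at 15.02% (chr7:45978001-45979000), 15.09% (chr17:5266001-5267000) and 15.12% (chr17:42843001-42844000). On its inner side, the highest early bins of retained domains were at 14.98% in chr9:24012001-24016000 and 14.94% in both chr24:23794001-23805000 and chr10:21821001-21826000.

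Each domain was next tested for a change between 24 and 36 hpf, as 1 of 911711 features that comprised every unmethylated run and every other bin, with edgeR's quasi-likelihood test on methylated and unmethylated counts. Of the 738 domains, 4 passed an adjusted p of 0.05 (0.542%), 3 higher and 1 lower at 36 hpf, against a background of 0.836% of all features. At an unadjusted p under 0.05 there were 78 (10.6%), against 12.2% of all features. The background was nearly all in the other direction, with 0.0195% of features higher and 0.817% lower at 36 hpf. Among runs of 2 to 3 kb, 22 of 7830 were called higher (0.281%) and 6 lower, and among single bins 40 of 12685 were called higher (0.315%) and 14 lower, so the share called higher was close in all 3 classes. With the replicate number as a block, 22 domains were called (2.98%), 18 higher and 4 lower, the 4 of the unblocked fit among them. That fit called 2.26% of all features (0.0852% higher and 2.17% lower), 1.65% of runs of 2 to 3 kb and 1.81% of single bins. When domains were tested as 1 kb bins, 15 of their 5004 bins were called (0.3%), against 0.692% of all features. By limma, 0 domains and 0% of all features were called. At an unadjusted p under 0.05 limma gave 20 of the 738 domains and 82212 of the 911711 features. When only unmethylated runs were tested and adjusted over, edgeR called 0, with an adjusted p of 0.909 for each of the 4. The spread was then also estimated from unmethylated runs alone. In that fit 48 domains had an unadjusted p under 0.05 (edgeR), as did 1116 of all 21253 runs.

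Without a test, 29 domains had all 4 libraries of 36 hpf above all 4 of 24 hpf and 13 had them all below, against 0.47% and 6.98% of all features. These are 3.93% and 1.76% of the domains, and the corresponding shares were 2.90% and 1.43% in runs of 2 to 3 kb and 3.03% and 1.24% in single bins. In each class of unmethylated sequence more runs were higher than lower at 36 hpf, whereas over all features more were lower. Unmethylated runs were chosen for low levels and had little room to fall. The remaining bins, at group means of 89.6% to 91.6%, had less room to rise than to fall. The part of these limits in the directions was not tested. By size, 672 domains (91.1%) changed by less than 1 point, 56 were higher at 36 hpf by 1 point or more and 10 lower, 5 were higher by 5 points or more and 0 lower.

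The domain with the smallest p was chr14:2024001-2031000 (7 kb, 149 CpGs). Its level at 24 hpf was 2.50% and 2.84% in PGCs and 2.68% and 2.72% in soma, and at 36 hpf 6.45% and 3.89% in PGCs and 5.93% and 6.28% in soma. All 4 later libraries were above all 4 earlier ones, with a mean rise from 2.68% to 5.64% (adjusted p = 0.0128, edgeR). The call was lost without PGC 36 hpf replicate 1 (adjusted p = 0.112), PGC 24 hpf replicate 1 (0.0565) or soma 24 hpf replicate 1 (0.0509), and it held without any of the other 5 libraries.

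This domain sits in a group. Within 100 kb of it lay 6 further wide domains, all 6 higher at 36 than at 24 hpf, although none of them passed the test on its own. For comparison, the mean was higher at 36 hpf in 390 of the 726 domains that were not over 10% in all libraries of that stage. It was higher in all 12 that were, but that set was chosen on its 36 hpf level. Of the 6, chr14:2032001-2037000, chr14:2038001-2044000 and chr14:2045001-2049000 follow the called domain with gaps of a single 1 kb bin. All were read in the same libraries, so they are not independent of it. The largest differences were in chr14:2038001-2044000, at 4.96% and 9.23% (adjusted p = 0.0573, edgeR), and in chr14:2045001-2049000, at 6.68% and 10.7% (adjusted p = 0.181). With the replicate block 3 of the 6 were called, against 22 of all 738 domains (2.98%) and 2.26% of all features (0.0852% higher at 36 hpf). These neighbours are described because of the called domain, after its values were seen.

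A second called domain, chr5:34474001-34478000 (4 kb, 76 CpGs), was at 2.98% and 1.07% in PGCs and 3.46% and 3.45% in soma at 24 hpf, and at 5.73% and 6.83% in PGCs and 6.16% and 4.76% in soma at 36 hpf. Its mean rose from 2.74% to 5.87% (adjusted p = 0.0212, edgeR), from an early level of 0.73%. The call held only without PGC 24 hpf replicate 1 (0.0148) or soma 36 hpf replicate 2 (0.0377), and without any of the other 6 libraries the adjusted p was 0.0515 to 0.147, the last without PGC 24 hpf replicate 2. The groups did not overlap. By bin the mean was higher at 36 hpf in each, least in the second, which holds 4 CpGs (1.48% and 2.02%), and the last bin was at 5.61% and 9.75%. A neighbouring domain, chr5:34434001-34441000, averaged 5.64% at 24 hpf and 10.1% at 36 hpf (adjusted p = 0.0629, edgeR), and it was called with the replicate block (adjusted p = 0.00296).

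The third, chr4:828001-832000 (4 kb, 111 CpGs), was at 3.53% and 3.56% in PGCs and 2.36% and 4.75% in soma at 24 hpf, and at 6.58% and 6.05% in PGCs and 7.90% and 6.05% in soma at 36 hpf. Its mean rose from 3.55% to 6.64% (adjusted p = 0.0419, edgeR). The call held only without soma 24 hpf replicate 2 (0.0166), and without any of the other 7 libraries the adjusted p was 0.0635 to 0.232, the last without soma 24 hpf replicate 1. The change was graded along the domain: the first bin stayed at 0.98% and 1.03%, and the last went from 5.73% to 10.6%. No other wide domain lay within 100 kb.

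The single domain called lower was chr18:38768001-38779000 (11 kb, 281 CpGs), whose PGC libraries were at 4.45% and 1.78% and soma libraries at 2.74% and 1.97% at 24 hpf, against 1.24% and 1.35%, and 1.0% and 1.32%, at 36 hpf (adjusted p = 0.0243, edgeR). The call was lost without PGC 24 hpf replicate 1 (0.174), soma 24 hpf replicate 1 (0.116), PGC 36 hpf replicate 1 (0.0901), soma 36 hpf replicate 1 (0.0864) or PGC 36 hpf replicate 2 (0.062). The difference lay in its last bin, which had an early level of 14.1%, just under the threshold of the rule. That bin went from a mean of 27.9% to 7.38%, and its 24 hpf replicates were far apart, at 47.9% and 11.5% in PGCs and 37.1% and 14.9% in soma. The other 10 bins were at 0.47% at 24 hpf and 0.53% at 36 hpf.

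**Figure D4:**
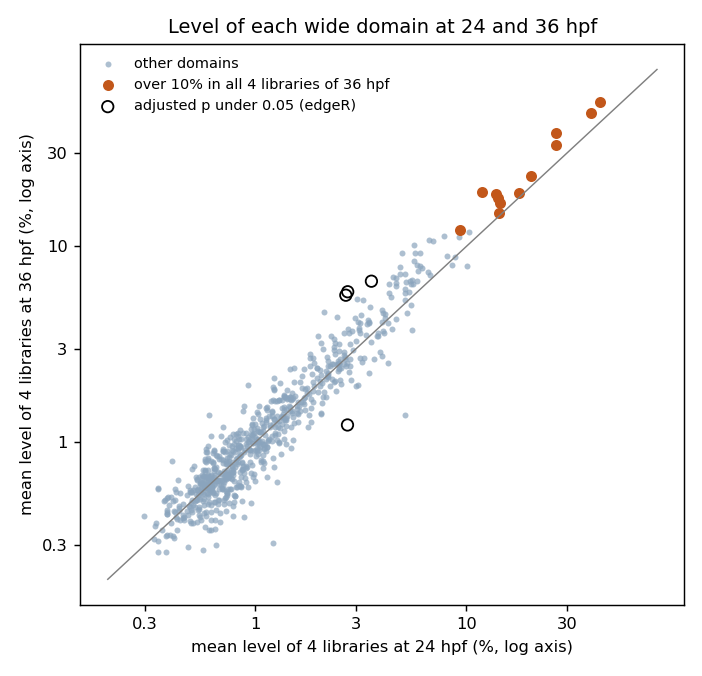
Mean level of each of the 738 domains over the 4 libraries of 24 hpf (x axis, percent, log scale) and of 36 hpf (y axis, percent, log scale); orange points are the 12 domains over 10% in all 4 libraries of 36 hpf, black circles the 4 domains with an adjusted p under 0.05, and the grey line marks equal levels. Most domains lie near 1% on both axes, and the 12 orange points lie above the line of equal levels.

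Between PGCs and soma, 0 of the 738 domains were called at 24 and 36 hpf together by edgeR (0% of all 911711 features). By limma the count was also 0 (0% of all features). At an unadjusted p under 0.05 edgeR gave 30 domains (4.07%), against 4.05% of all features, a share close to the background. The counts were 0 at 24 hpf (32 or 4.34% unadjusted, background 4.61%) and 0 at 36 hpf (18 or 2.44% unadjusted, background 2.85%). For the difference of the stage change between cell types the count was 0 (24 or 3.25% unadjusted, background 4.02%, and 0.00011% adjusted). In each of these, limma called 0 domains and 0% of all features. Within single cell types, 36 against 24 hpf gave 0 domains in PGCs (69 or 9.35% unadjusted, background 9.49%, and 0.111% adjusted) and 0 in soma (42 or 5.69% unadjusted, background 6.16%, and 0.000548% adjusted). With the replicate block these counts were 8 in PGCs (1.08%, background 0.812%) and 1 in soma (0.136%, background 0.139%). These shares are close to the background only with both directions merged. In PGCs 5 domains were higher and 3 lower at 36 hpf, against 342 higher and 7059 lower among all 911711 features. In soma the 1 domain was higher, against 104 higher and 1166 lower among all features. By size, 711 domains (96.3%) differed by less than 1 point between the cell types, 10 were higher in PGCs by 1 point or more and 17 lower.

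The domains with the smallest p in this comparison differed by less than 1 point and did not pass the test (adjusted p = 1 for each, edgeR). In chr8:29582001-29586000 (142 CpGs) the PGC libraries were at 0.44%, 0.49%, 0.34% and 0.62% and the soma libraries at 0.09%, 0.32%, 0.30% and 0.23% (24 hpf replicates 1 and 2, then 36 hpf). In chr25:35776001-35781000 (136 CpGs) they were at 1.36%, 1.49%, 1.46% and 1.26% in PGCs and 1.47%, 0.86%, 0.57% and 0.73% in soma, and the cell types overlapped. In chr11:40650001-40661000 (202 CpGs) PGCs were lower, at 0.66%, 0.38%, 0.56% and 0.50% against 0.87%, 0.68%, 0.98% and 0.89%.

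A small set of domains was over 10% by 36 hpf. In 12 domains (1.63%) every library of 36 hpf was over 10%, and in 9 of them every library of 24 hpf was as well. They were narrow, at 4 to 6 kb, and lay on 9 chromosomes, with a median of 16.6 CpGs per kb against 21.7 in the other 726 domains. Their early level had been higher too, at a median of 4.87% (1.78% to 12.5%) against 0.80%. Their median was 16.1% at 24 hpf and 18.8% at 36 hpf, whereas that of the other domains was 0.94% and 0.95%. As the set was chosen on its 36 hpf level, after the values were seen, the comparison with earlier stages carries no test.

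The highest of them was chr4:72932001-72936000 (4 kb, 70 CpGs). Its level ranged from 3.43% to 9.84% over the 8 early libraries, was 41.0% and 34.7% in PGCs and 48.8% and 47.3% in soma at 24 hpf, and was 58.5% and 49.6% in PGCs and 54.2% and 54.8% in soma at 36 hpf. The level at 24 hpf was shared by all 4 bins, which averaged between 39.6% and 50.1% at that stage. At 24 hpf both PGC libraries were below both soma libraries, and at 36 hpf the cell types overlapped. The difference between 24 and 36 hpf was not called (adjusted p = 0.149, edgeR), though it was with the replicate block (adjusted p = 0.0382).

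The second, chr7:8059001-8063000 (4 kb, 70 CpGs), was at 38.2% and 27.6% in PGCs and 51.4% and 39.0% in soma at 24 hpf and at 53.3% and 45.8% in PGCs and 51.7% and 40.4% in soma at 36 hpf. The third, chr18:13479001-13483000 (4 kb, 82 CpGs), was at 15.5% and 26.9% in PGCs and 31.9% and 32.6% in soma at 24 hpf and at 35.1% and 37.7% in PGCs and 37.3% and 41.6% in soma at 36 hpf. Both had been low in every early library, at up to 12.2% and 9.57%, and in both the PGC libraries of 24 hpf were the lowest of the late ones. The difference between stages was not called in either (adjusted p = 0.379 and 0.112, edgeR), and in the third it was called with the replicate block (adjusted p = 0.018). The next highest, chr22:1854001-1858000, was over 25% in all libraries of 36 hpf, from the highest pooled early level of the set (12.5%). It was not low in every early library: these ranged from 4.18% to 31.2%, the last in soma 4 hpf replicate 1. Its soma libraries of 36 hpf were at 30.7% and 33.1%.

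The lower level of PGCs at 24 hpf was seen across the set, and also in the pooled levels of narrower unmethylated runs. The PGC mean was below the soma mean in 12 of the 12 domains at 24 hpf and in 4 of 12 at 36 hpf, and in 8 of 12 both PGC libraries of 24 hpf lay below both soma libraries, as they did in 128 of the other 726 domains and in 10.5% of all features. Among the other 726 domains the PGC mean was lower in 402 at 24 hpf and in 376 at 36 hpf. In runs of 2 to 3 kb the pooled 24 hpf levels were 2.42% and 2.24% in PGCs and 2.54% and 2.52% in soma. In single bins they were 3.45% and 3.15% in PGCs and 3.74% and 3.62% in soma. In both classes the cell types overlapped at 36 hpf. The share of all features with a lower PGC mean was not counted. All 12 domains were read in the same libraries and chosen after their values were seen, so they are not independent observations of a cell type difference. The interaction of cell type and stage was not called in any of the 12 (adjusted p = 1 for each, edgeR), so a difference in timing between the cell types was not shown by the test.

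**Figure D5:**
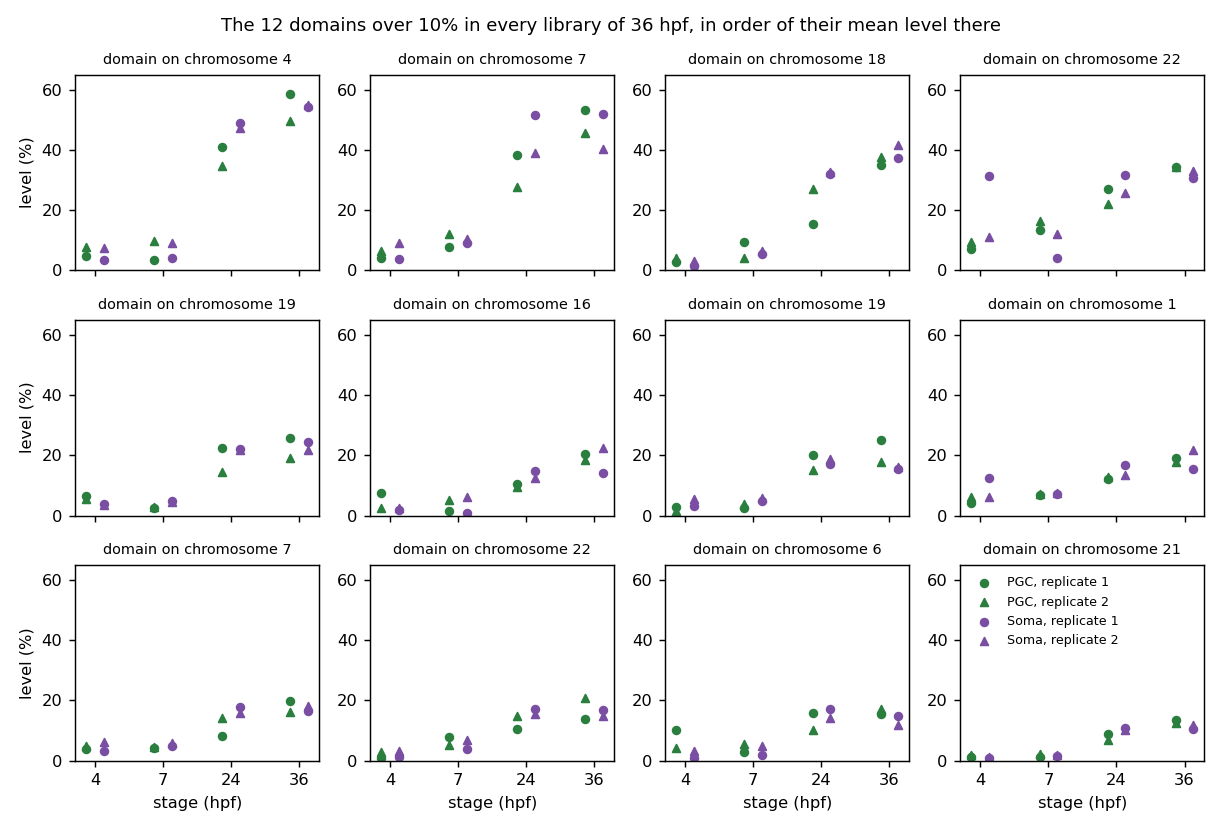
Methylation level in percent (y axis, to 65%) by stage in hpf (x axis) in the 12 domains over 10% in every library of 36 hpf, ordered by their mean level there; green is PGC, purple is soma, circles are replicate 1 and triangles replicate 2. The first panel lies between 3.43% and 9.84% at 4 and 7 hpf and between 49.6% and 58.5% at 36 hpf, and the last 8 panels reach at most 25.8%.

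The size of change that the test could call was examined in simulated counts, in which depth was not varied. The domains had at least 134 calls in each late library, and 734 of 738 had at least 200. In counts simulated for the comparison of 36 with 24 hpf from these libraries, over 121253 features with 200 domains raised by a known amount, the edgeR test recovered 0% of rises of 2 points, 25.5% of rises of 5 points and 67.0% of rises of 10 points. Rises of 2 and 5 points were thus mostly not recovered in these simulated counts. Their spread between libraries was a fixed value, not one estimated from the data, and they held fewer features than the 911711 tested. Only the 200 raised domains were changed in them, whereas 7625 features (0.836%) were called in the data. With a smaller share of features called, the adjustment asked for a smaller unadjusted p in the simulated counts. The recovered shares therefore need not hold for the data. There the 4 called domains changed by -1.51 to 3.13 points, and 5 of the 22 called with the replicate block changed by under 1 point.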

How the data were processed

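Zebrafish PGC and soma libraries were profiled by whole-genome bisulfite sequencing. The methods of the study state that the authors used fastp 0.12.5 for trimming, WALT for mapping to a danRer10 reference that included the lambda genome, Picard 2.3.0 for duplicate removal and MethylDackel for methylation calls, which were merged over the strands of each CpG. The deposited values are counts of methylated calls and of all calls per CpG, in 1 table per replicate number, and a CpG appears in a table if each of the 8 libraries there has 1 call or more, so the depth of the shallowest library decides the CpG set. Calls per library ranged from 25742797 to 250228430.

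Groups came from the sample labels. The 10260021 nuclear CpGs in both tables were used, and positions were converted to count from 1. Pooled levels per library were compared by exact permutation within cell type or stage, and single domains with edgeR 4.0.16 (R 4.3.3; quasi-likelihood F-test with a term per library, common dispersion from 5000 evenly spaced features, Benjamini-Hochberg adjustment over all features). limma 3.58.1 with a prior count of 2 was the alternative, and Python 3.11.15 did the rest. Simulated counts with known changes tested the script. Same-numbered libraries deviated together over the 738 domains (r of replicate differences between the 4 late groups 0.468 to 0.670), so the fit with replicate number as a block is given where it changes a call. The labels do not say what the number stands for, and each number is also a separate table. Calls may come from copies of the same molecule.

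Named domains were the 5 widest, those called in either comparison (up to 5 per direction) or, with none called, the 3 with the smallest p, the 3 highest and 3 lowest late levels, and the 3 on each side of the threshold. Neighbours of called domains and the 12 domains over 10% at 36 hpf were added after their values were seen. The domains, thresholds and comparisons were chosen with earlier results of these data known. Alternatives were other thresholds, run lengths, coverage minimums, weightings and feature sets, leaving out single libraries, the replicate block and unrestricted relabelling.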

Additional observations from a re-analysis of the deposited data

How the results depend on the processing

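The difference of 0.162 points between 36 and 24 hpf had the same sign under all 18 alternatives (0.102 to 0.223 points, p from 0.0286 to 0.444). With labels permuted over all 8 libraries it was 0.162 points with p = 0.0286 (exact), the only setting under 0.05, and leaving out single libraries gave 0.102 to 0.223. The PGC minus soma difference of -0.0446 points lay between -0.105 and 0.0156 on leaving out single libraries, with the sign turned without PGC replicate 2 of 24 hpf (0.0156). The comparisons of wide domains with runs of 2 to 3 kb and with single bins, and of borders with interiors, kept their signs in all 12 alternatives of each (-0.0211 to -0.198, -0.22 to -0.396 and 0.0458 to 0.233 points), and most of these tests cannot give a p under 0.0556. As pairs of same-numbered libraries, the 36 minus 24 hpf and the PGC minus soma differences each had an exact sign-flip p of 0.125, the smallest that 4 pairs allow.

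The count of 4 domains called for 36 against 24 hpf depended on the settings: 22 with the replicate block (2.98%, against 2.26% of all features), 0 with limma, 0 when only unmethylated runs were tested and adjusted over, 13 with a called bin when domains were tested as 1 kb bins (0.3% of their bins, against 0.692% of all features), and 0 to 5 on leaving out single libraries (2 without PGC 24 hpf replicate 1, 0 without PGC 36 hpf replicate 1, 2 without soma 24 hpf replicate 1 and 1 without PGC 36 hpf replicate 2). In the fits named last, in that order, 0.276%, 0.306%, 0.274% and 0.33% of all features were called, against 0.836% with all libraries. The shares of domains were 0.271%, 0%, 0.271% and 0.136%. Without any of the other libraries 0.32% to 0.681% of all features were called. Fewer features of the whole genome were thus called in every such fit, so lower counts were not particular to the domains. Each of the 4 domains kept its direction in the 12 alternatives computed for it. With the block, 36 against 24 hpf also gave 8 domains in PGCs (1.08%, background 0.812%) and 1 in soma (0.136%, background 0.139%), both directions merged. The counts for PGC against soma and for the interaction were 0 in all 13 alternatives, the block included. The number of domains was 649 to 863 under other rules.

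Subtracting the lambda level of each library was not run, because replicate 2 has 50 to 221 lambda calls per library. Levels near 1% are not far above incomplete conversion, 2 libraries per group leave small changes undetected, 40.6% of domain ends adjoin bins without enough data, and without gene annotation of danRer10 the domains cannot be tied to genes here.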
